A study of Mus musculus with 11 samples.

Results

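The transcripts described here are 6 that mark red blood cells in a heart sample, and they show how much red cell RNA each heart library held. They were taken by name from a table of 55421 mouse genes, and all 6 were found: the alpha globins Hba-a1 and Hba-a2, the beta globins Hbb-bs and Hbb-bt, the heme synthesis enzyme Alas2 and the membrane anion exchanger Slc4a1. RNA was sequenced from hearts of 11 female C57BL/6J mice, 8 weeks old, each mouse giving 1 library. In 8 mice the left anterior descending coronary artery was tied to cause a myocardial infarction (MI), and tissue of the infarct and its border zone was taken 3 days later. Of these, 4 received GI254023X (A10i, 100 mg/kg), an inhibitor of the metalloprotease ADAM10, and 4 received its solvent DMSO. Sham surgery and DMSO were given to 3 further mice, whose healthy heart tissue was taken, so the tissue taken differed together with the surgery. Whether the hearts were flushed of blood before RNA extraction is not given in the sources used here. Libraries are named as in the labels, S1 to S3 for Sham, A105, A127, A128 and A129 for DMSO, and A116, A117, A119 and A120 for A10i.

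Hemoglobin, the oxygen carrier of red blood cells, is built of alpha and beta globin chains, each of which holds a heme group. Alas2 makes the first, rate-limiting step of heme synthesis in red cell precursors, and Slc4a1 (band 3) exchanges chloride for bicarbonate and anchors the membrane skeleton. Mature red cells have no nucleus and make no new RNA, but young ones (reticulocytes) still carry globin mRNA in the circulation, so these transcripts are widely used to gauge blood in a tissue sample.

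The globin genes come in near-identical pairs, which bears on how far their counts can be told apart. In the GENCODE annotation of GRCm38, Hba-a1 (11:32283511-32284465) and Hba-a2 (11:32296489-32297298) lie on the plus strand of chromosome 11, and Hbb-bs (7:103826534-103828096) and Hbb-bt (7:103812524-103813996) on the minus strand of chromosome 7. Each main transcript has 3 exons. The coding sequences of the alpha pair, 429 bases each, differed at 1 base, C381T (the base of Hba-a1, its position counted from 1 at the start codon, and the base of Hba-a2). Those of the beta pair, 444 bases each, also differed at 1 base, C417T, with Hbb-bs first. Both lie in exon 3, at the third base of a codon. The 61 coding bases around each are shown because they hold the only coding base that separates the copies, in capitals.
Hba-a1, chr11:32284303-32284363, plus strand: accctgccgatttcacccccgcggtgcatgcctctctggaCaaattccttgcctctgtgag
Hba-a2, chr11:32297120-32297180, plus strand: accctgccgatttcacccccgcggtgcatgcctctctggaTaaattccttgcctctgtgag
Hbb-bs, chr7:103826672-103826732, minus strand: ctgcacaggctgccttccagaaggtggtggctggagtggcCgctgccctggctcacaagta
Hbb-bt, chr7:103812663-103812723, minus strand: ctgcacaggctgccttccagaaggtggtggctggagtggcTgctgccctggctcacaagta

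Outside the coding sequence the copies differed more. Of the 100-base windows of the main transcript, which is the length of 1 read, 56.5% of those of Hba-a1 and 74.5% of those of Hba-a2 occurred without a mismatch in the other alpha copy. For the beta pair these shares were 62.6% of Hbb-bs and 54.8% of Hbb-bt. The authors counted uniquely aligned reads, so parts of each transcript could have given reads that were not counted. The level of a single copy is therefore uncertain. Reads came in pairs, and a read from a shared window could still be placed by its mate. The windows take each read alone, so the share of reads lost may be smaller. Sums over a pair are subject to the same loss.

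The stretches before the gene starts are shown as background on these genes. A relation between them and the levels described below was not tested. The set of RefSeq promoters used here (GRCm38.p6) held 5 of the 6 genes, all but Slc4a1. Of the 250 bases before the RefSeq start, those upstream of every annotated exon are printed for Hba-a2, Hbb-bt and Alas2. The motifs searched on both strands are in capitals. They are GATAA, the core read by GATA factors, and CACCC, which is read by Krüppel-like factors, besides the box CCAAT and the start-site element TATAA.
Hba-a2, chr11:32296242-32296488, plus strand: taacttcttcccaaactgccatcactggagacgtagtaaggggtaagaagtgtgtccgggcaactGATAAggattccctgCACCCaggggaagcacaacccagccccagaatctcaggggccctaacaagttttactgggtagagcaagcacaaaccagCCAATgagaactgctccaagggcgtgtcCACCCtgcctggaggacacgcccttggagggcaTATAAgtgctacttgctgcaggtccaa
Hbb-bt, chr7:103813997-103814173, minus strand: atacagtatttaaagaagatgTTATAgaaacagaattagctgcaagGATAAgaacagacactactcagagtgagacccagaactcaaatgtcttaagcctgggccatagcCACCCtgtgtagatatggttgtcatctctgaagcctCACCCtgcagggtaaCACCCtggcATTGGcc
Alas2, chrX:150547167-150547374, plus strand: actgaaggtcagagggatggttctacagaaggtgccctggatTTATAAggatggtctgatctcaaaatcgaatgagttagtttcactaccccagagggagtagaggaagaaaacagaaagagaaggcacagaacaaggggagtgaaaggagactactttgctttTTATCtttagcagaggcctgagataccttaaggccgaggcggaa

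In the full 250 bases each of the 4 globin promoters held all 4 motifs. GATAA began 182 bases before the start of Hba-a1, 185 before that of Hba-a2, 209 before that of Hbb-bs and 204 before that of Hbb-bt. TATAA began 27 to 30 bases before the start in all 4. The Alas2 stretch held GATAA on the opposite strand, 86 bases before the start, and 3 CACCC on the opposite strand, but no CCAAT; its TATAA, 207 bases before the start, overlaps the match on the other strand. Of 32851 mouse promoters cut to the same length, 22.6% held GATAA, 52.0% CACCC, 33.8% CCAAT and 22.8% TATAA. These matches describe letters, not bound sites.

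The libraries held 21702623 to 29511768 counts each. Cardiomyocyte markers summed to 80950 to 83636 CPM (counts scaled to a common library size) in Sham, 39991 to 58352 in DMSO and 46502 to 63597 in A10i, and all 9 were detected. Mitochondrial genes took 21.5 to 22.2% of counts in Sham, 14.8 to 18.6% in DMSO and 15.7 to 17.9% in A10i. Library A117 (A10i) and library A105 (DMSO) stood apart from all others in red blood cell transcripts, so fold changes that rest on them are given with and without them.

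The 6 transcripts together were a small share of every library, and this share varied widely between mice of the same group. It was 0.0535%, 0.118% and 0.0875% of counts in the Sham libraries S1, S2 and S3. In DMSO it was 0.355% in A105, 0.0826% in A127, 0.0241% in A128 and 0.107% in A129. In A10i it was 0.116% in A116, 0.506% in A117, 0.139% in A119 and 0.132% in A120. The highest and the lowest library, A117 and A128, thus differed 21-fold, both from infarcted hearts. The means were 0.0862% ± 0.032 in Sham (SD, n = 3), 0.142% ± 0.146 in DMSO and 0.223% ± 0.189 in A10i (SD, n = 4 each), and all 3 groups overlapped. The 4 globins made up 97.8 to 98.4% of the sum in every library. In bulk tissue a lower share cannot be told apart between fewer red cells and less RNA per cell.

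Levels of the beta globin Hbb-bs, which had the most counts of the 6, were 218, 471 and 353 CPM in S1, S2 and S3. These values were scaled by edgeR's TMM factors over all 11 libraries. In DMSO they were 1341 in A105, 286 in A127, 92.5 in A128 and 346 in A129. In A10i they were 383 in A116, 1804 in A117, 469 in A119 and 464 in A120. A105 and A117 exceeded every other library, A128 lay below every other library, and the remaining 5 infarcted hearts lay within the Sham range.

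Hbb-bt, the second beta globin copy, had 134, 282 and 213 CPM in Sham. It had 761, 168, 43.0 and 206 CPM in A105, A127, A128 and A129, and 220, 1097, 284 and 270 CPM in A116, A117, A119 and A120. The order of the libraries by share of counts was nearly that of Hbb-bs, with A119 and A120 exchanged.

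The alpha globin Hba-a1 had 134, 307 and 223 CPM in Sham, 919, 190, 56.99 and 229 CPM in DMSO, and 255, 1222, 364 and 313 CPM in A10i, with the libraries listed as above. Its copy Hba-a2 had 94.5, 211 and 156 CPM in Sham, 611, 127.5, 35.6 and 150 CPM in DMSO, and 171, 795, 246 and 219 CPM in A10i. For both copies A117 and A105 were again highest and A128 lowest.

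Alas2 (chromosome X, 150547375-150570638, plus strand), the only one of the 6 that acts in heme synthesis, had 10.2, 24.6 and 18.5 CPM in Sham. It had 71.5, 11.9, 3.86 and 17.9 CPM in DMSO and 18.5, 104, 24.3 and 22.3 CPM in A10i. A117, A105 and A128 stood apart in the same direction as for the globins. In 311 of its 2403 exon bases Alas2 overlaps Apex2, a DNA repair gene on the opposite strand; the strand setting of the counting is not given in the sources used here, so these counts may mix. Apex2 had 134 to 263 counts a library, lowest in A105 and 162 in A117.

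Slc4a1 (chromosome 11, 102348824-102366203, minus strand) was close to the detection limit. Its raw counts were 2, 18 and 15 in Sham, 50, 14, 2 and 33 in DMSO, and 32, 131, 44 and 9 in A10i. A117 was again highest and A105 next, while A128 and S1 held 2 counts each. At this depth counting error alone is large in those libraries.

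**Figure D1:**
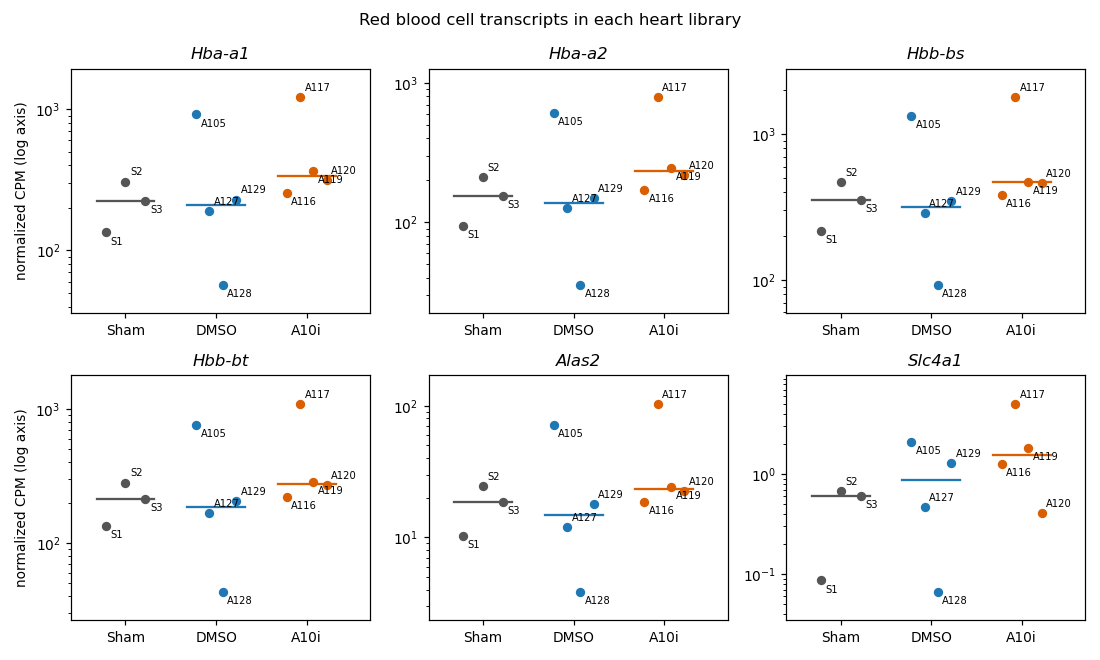
Normalized CPM of the 6 red blood cell transcripts on log axes, 1 point for each library, with the group median as a line. In each panel A117 and A105 are the highest points and A128 is the lowest of all 11.

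Per kilobase of exon, Hbb-bs was the highest in all 11 libraries. The divisor was the full exon length, while reads shared by the copies of a pair were not counted. The order and ranks of the single globin copies are therefore uncertain, and how far the loss alters them was not tested. As counted, Hbb-bs stood 1.49 to 1.97 times above Hbb-bt. Hbb-bt and Hba-a1 had no fixed order, with Hbb-bt higher in 6 of 11 libraries (ratio 0.872 to 1.15). Hba-a1 exceeded Hba-a2 in all 11, by 1.17 to 1.31 times, Hba-a2 exceeded Alas2 by 27.7 to 38.5 times, and Alas2 exceeded Slc4a1 by 27.2 to 240.2 times. By CPM per kilobase Hbb-bs ranked 14th to 352nd of all genes in a library, and Slc4a1 ranked 12845th to 24005th.

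The first comparison, DMSO against Sham, asks how an infarct altered the red blood cell transcripts. None of the 6 differed between these groups by edgeR's quasi-likelihood test at an adjusted p under 0.01, while 22.5% of the 17117 genes tested were called. All 6 fitted log2 fold changes were above 0, at 0.48 to 1.04, with a median of 0.57 beside 0.00211 over all genes tested. Hbb-bs had a log2 fold change of 0.57 ± 0.76 (SE), with a 95% interval of -1.18 to 2.31 and an adjusted p of 0.582. Slc4a1 had the highest, 1.04 ± 0.91, with an adjusted p of 0.391. For 5 of the 6 the DMSO libraries held 1 library above and 1 below all Sham libraries. Slc4a1 had 2 above, A105 and A129, and A128 below. By an exact permutation test of log2 CPM, two-sided, p was 0.857 to 0.971 for the globins and Alas2 and 0.629 for Slc4a1 (n = 4 and 3), where 0.0571 is the smallest such p. The difference of mean log2 CPM was below 0 for Hba-a2 (-0.03), Hbb-bt (-0.13) and Alas2 (-0.10), opposite in sign to their fitted fold changes.

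The direction in this comparison rested on library A105. Without it the log2 fold changes of the 4 globins and Alas2 were below 0, from -0.50 for Hba-a1 to -0.69 for Alas2, with adjusted p from 0.284 to 0.415. That of Slc4a1 was 0.33.

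The comparison A10i against Sham gave larger differences but again no call, with 22.9% of 16971 genes called. The log2 fold changes were 1.28 ± 0.61 for Hba-a1 (SE), 1.22 ± 0.59 for Hba-a2, 1.17 ± 0.61 for Hbb-bs, 1.16 ± 0.62 for Hbb-bt and 1.25 ± 0.69 for Alas2. Slc4a1 had 2.21 ± 0.85, with a 95% interval of 0.26 to 4.16, an unadjusted p of 0.0308 and an adjusted p of 0.0709. The other 5 had adjusted p of 0.137 to 0.195 and intervals that spanned 0. The median of the 6 was 1.24, beside -0.00536 over all genes tested.

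Library A117 carried much of this difference. Without it the log2 fold changes were 0.29 to 0.49 for the globins and Alas2 and 1.33 for Slc4a1. The lowest adjusted p over the 7 fits that left out 1 library was 0.0246, for Slc4a1. A10i libraries above all Sham libraries numbered 3 of 4 for Hba-a1, Hba-a2 and Slc4a1, 2 of 4 for Hbb-bt and 1 of 4 for Hbb-bs and Alas2, and none lay below all of them. Exact permutation p was 0.114 to 0.343 for the 6 (two-sided, n = 4 and 3), again with 0.0571 as the smallest possible.

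The comparison A10i against DMSO asks whether the inhibitor altered the amount of red cell RNA in infarcted hearts, and it bears on how far blood could differ between the treated groups. None of the 6 was called. Of the 16792 genes tested 0% were called: 0 genes at an adjusted p under 0.01 by edgeR, with 2323 at an unadjusted p under 0.05, and 231 genes by DESeq2. The log2 fold changes lay between 0.60 for Hbb-bs and 1.17 for Slc4a1, with a median of 0.66 beside 0.00343 over all genes tested and adjusted p of 0.584 to 0.781. The 95% interval for Hbb-bs was -1.12 to 2.32, from 0.459 to 4.997-fold, so with 4 mice a group changes of that size in either direction lay within the error. By an exact permutation test of log2 CPM, two-sided, the p was 0.314 for each of the 4 globins and Alas2 and 0.429 for Slc4a1 (n = 4 each), where 0.0286 is the smallest such p.

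**Figure D2:**
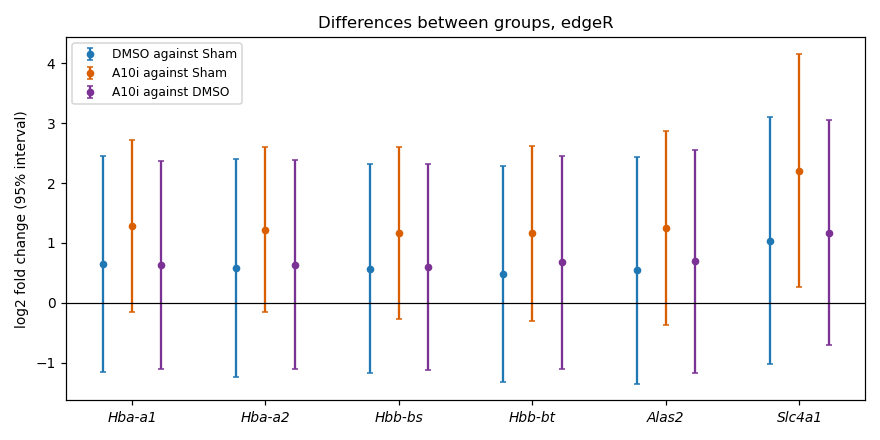
Log2 fold changes of the 6 transcripts in the 3 comparisons from edgeR, with 95% intervals as bars. All 18 estimates lie above 0, and 17 of the 18 intervals span 0, all but that of Slc4a1 in A10i against Sham.

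The high library of each infarcted group pulled this comparison in opposite directions. Without A117 the log2 fold changes were -0.16 for Hba-a1, -0.12 for Hba-a2, -0.23 for Hbb-bs, -0.19 for Hbb-bt, -0.26 for Alas2 and 0.29 for Slc4a1. Without A105 they were 1.70 to 1.93. With both left out they were 0.87 to 1.03, and adjusted p was 0.546 to 0.762. No fit that left out 1 library called any of the 6.

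**Figure D3:**
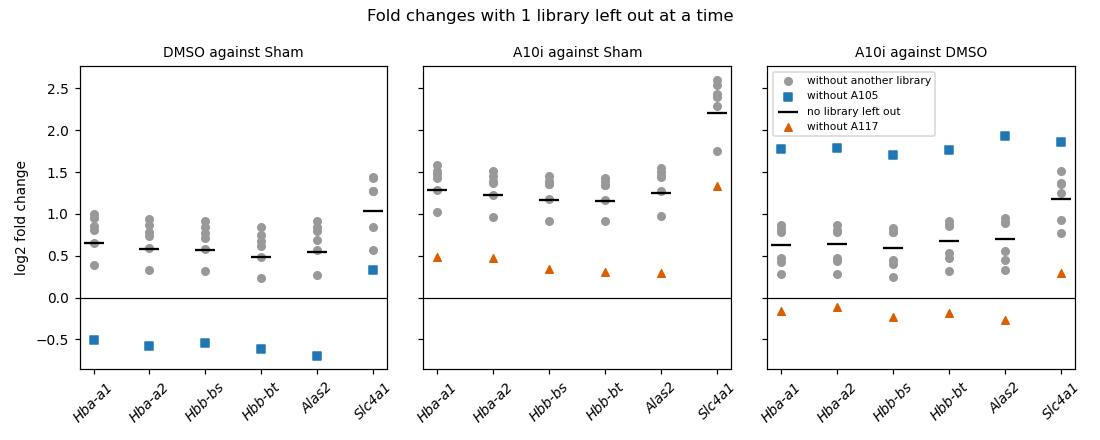
Log2 fold changes with each library left out in turn, in 3 panels for the 3 comparisons; the black bar is the fit with no library left out. Without A105 the DMSO against Sham values of 5 transcripts fall below 0, and without A117 the A10i against DMSO values of the same 5 do.

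The spread of these transcripts within groups was among the widest of all genes. In the A10i and DMSO libraries the biological coefficient of variation, the replicate spread that edgeR estimates beyond counting error, was 0.714 for Hbb-bs, 0.774 for Alas2 and 0.824 for Slc4a1, beside a median of 0.149. Of 16792 genes, 17, 7 and 3 had a wider spread than these. In the other 2 comparisons 9 to 59 genes had a wider spread than a given one of the 6.

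The 6 transcripts rose and fell together from mouse to mouse. Across the 8 infarcted hearts the log2 CPM of Hba-a1, Hba-a2, Hbb-bt and Alas2 each had a Pearson r with Hbb-bs of 0.997 to 0.998 and a Spearman rho of 1. By exact permutation over all 40320 pairings p was 2.48e-05 for each r, the smallest it can be, and 3.1e-05 after Benjamini-Hochberg adjustment over the 5 relations; for each rho it was 4.96e-05, adjusted 6.2e-05. Leaving out A128 and A117, the 2 libraries farthest from the median of Hbb-bs, r was 0.993 to 0.999. That set kept A105, at 1341 CPM of Hbb-bs beside 286 to 469 CPM in the other infarcted libraries kept. No r or slope was computed without both A105 and A117, so how far these values rest on A105 is not known. With each library taken as its deviation from its group mean, r was 0.997 to 0.998. A group holds only 4 libraries, too few for a correlation within each.

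Slc4a1 followed less tightly, with r = 0.892 (exact permutation p = 0.00399, adjusted 0.00399) and rho = 0.833 (p = 0.0154, adjusted 0.0154). Without A128 and A117 its r was 0.559 (exact permutation, adjusted p = 0.268), so that relation rested on those libraries. The slopes on the log2 scale were 1.03 for Hba-a1, 1.04 for Hba-a2, 1.06 for Hbb-bt, 1.10 for Alas2 and 1.07 for Slc4a1.

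Since total levels differed so much, the ratios between the transcripts were compared as well; they do not depend on library size. The alpha to beta globin ratio of counts was 0.650 to 0.688 in Sham, 0.683 to 0.728 in DMSO and 0.695 to 0.809 in A10i. A10i lay above Sham in every library, by 0.13 on the log2 scale, with an exact permutation p of 0.0571, the smallest that 4 against 3 allows, and an adjusted p of 0.286 over 15 tests. The difference between A10i and DMSO was 0.07 (exact p = 0.257, adjusted p = 0.429). Without A119, the library with the ratio of 0.809, the difference was 0.08 against Sham and 0.02 against DMSO.

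Hba-a1 to Hba-a2 was 1.42 to 1.46 in Sham, 1.49 to 1.60 in DMSO and 1.43 to 1.54 in A10i. Hbb-bs to Hbb-bt was 1.63 to 1.67 in Sham, 1.68 to 2.15 in DMSO and 1.64 to 1.74 in A10i. For both pairs all DMSO libraries lay above all Sham libraries, by 0.09 and 0.14 on the log2 scale, each with an exact permutation p of 0.0571 and an adjusted p of 0.286. None of the 15 differences in ratios passed an adjusted p of 0.05, and none of the 10 against Sham could, given the smallest p they allow.

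The highest Hbb-bs to Hbb-bt ratio came from A128, the library with the fewest globin counts. Hbb-bs took 68.3% of its 4076 beta globin counts (95% Wilson interval 66.8 to 69.7, counting error only), beside 62.0 to 63.8% in the other 10 libraries. Chi-square divided by its degrees of freedom was 9.66 over the libraries, and 5.01 without A128, so the shares varied beyond counting error either way. The share of Hba-a1 among alpha globin counts was 58.7 to 61.5%, where that quotient was 2.94.

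Alas2 stood at 0.0188 of the globin counts in Sham, 0.0177 in DMSO and 0.0186 in A10i (means of log2 ratios, returned to the linear scale). It ranged from 0.0155 in A127 to 0.0211 in A117. The differences between groups were -0.09 for DMSO against Sham, -0.02 for A10i against Sham and 0.07 for A10i against DMSO on the log2 scale, with exact permutation p of 0.4, 0.857 and 0.571 and adjusted p of 0.5 to 0.857. Slc4a1 to globin ranged from 0.000149 to 0.00139, and its differences of 0.73, 1.21 and 0.48 had exact permutation p of 0.4, 0.229 and 0.514 and adjusted p of 0.429 to 0.593.

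**Figure D4:**
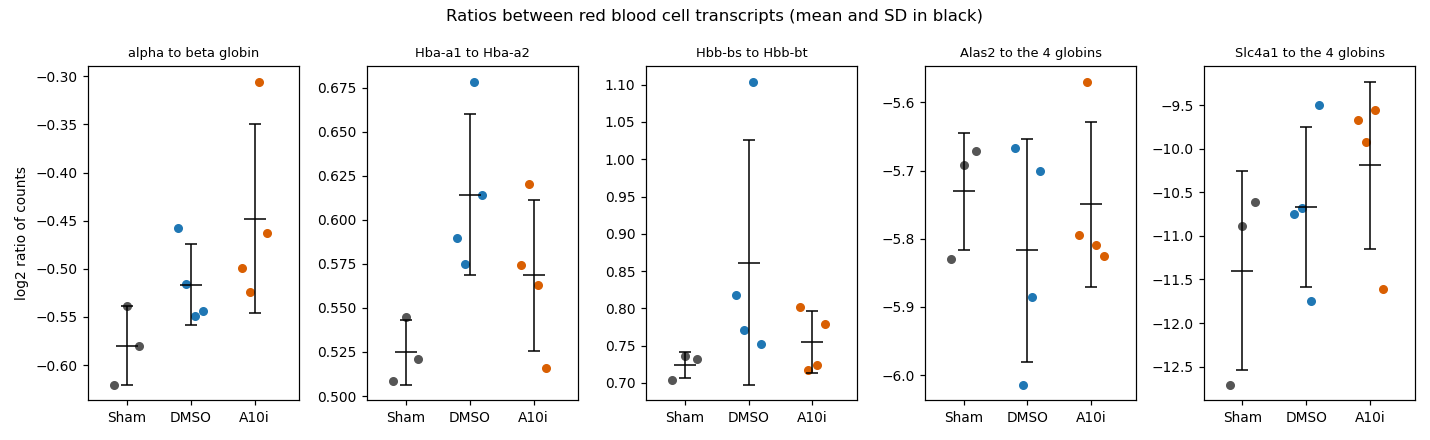
Log2 ratios of counts between the transcripts, 1 point for each library in Sham, DMSO and A10i, with the mean and SD of each group in black. The axes differ between panels; the ratios to globin span 0.45 log2 units for Alas2 and 3.22 for Slc4a1.

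Other genes of the red cell lineage were mostly at or near 0. Of 29 genes in that list, 2 (Rhag and Hbb-bh2) had 0 counts in every library, and 15 had no more than 10 counts in any. The embryonic globins Hbb-y, Hbb-bh1 and Hba-x had at most 1 count a library. The transcription factors of red cell precursors Gata1 and Klf1 had at most 2 and 4. The membrane gene Epb42 and the gene Trim10 were too low for the test and were named after their values were seen. Both were highest in A117, with 18 and 33 counts, beside 3 and 20 in A105 and 0 each in A128. Epb42 also had 3 counts in S2, A127, A129 and A120. Epor and Icam4, which passed the filter and were likewise named after their values were seen, went the other way. They were highest in A128, with 53 and 36 counts, beside 32 and 9 in A117.

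Some genes of this list passed the filter. Over all genes tested 12.9% were called higher and 9.6% lower in DMSO against Sham, and 13.7% and 9.11% in A10i against Sham. In DMSO against Sham 1 of 11 was called higher and 3 lower, with a median log2 fold change of -0.13. In A10i against Sham 1 of 12 was higher and 3 lower, with a median of -0.05. In A10i against DMSO 0 of 11 were called, with 2 at an unadjusted p under 0.05, and a median of 0.12. The highest were the membrane skeleton genes Ank1 (ankyrin, 359 ± 11.6 CPM in Sham) and Sptb (beta spectrin, 273 ± 18.3; SD, n = 3), which heart muscle also expresses. Ank1 fell by 0.58 in DMSO and 0.46 in A10i against Sham on the log2 scale, and Sptb fell by 0.61 in both. Tmcc2 fell and Nfe2, a factor also made by megakaryocytes and white blood cells, rose in both comparisons, Nfe2 by 2.49 and 1.59. Nfe2 was low throughout, with 5 to 6 counts a library in Sham, 16 to 43 in DMSO and 11 to 25 in A10i. Scaled by library size alone, Ank1, Sptb and Tmcc2 were not called in A10i against Sham (adjusted p = 0.0112, 0.0201 and 0.0341), and the medians of the list were 0.08 and 0.14, beside 0.21 and 0.18 over all genes.

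Of 12 genes listed for heme synthesis, 3 were called lower in DMSO and 5 in A10i against Sham, and 0 were higher. The medians were -0.43 and -0.30, beside 0.00211 and -0.00536 over all genes. Counted in both directions, the 3 of 12 in DMSO stand beside 22.5% of all genes and the 5 of 12 in A10i beside 22.9%. Scaled by library size alone 3 were lower and 1, Slc25a37, was higher in each comparison, and Uros was not called in A10i against Sham (adjusted p = 0.0172). Alas1, the form of the enzyme used outside red cells, had 207 ± 21.5 CPM in Sham (SD, n = 3), 138 ± 38.9 in DMSO and 176 ± 16.8 in A10i (n = 4 each), with adjusted p of 0.0337 and 0.0922 against Sham. Fech, which inserts iron to form heme, had adjusted p of 0.0155 and 0.0243. The mitochondrial carrier Slc25a38 fell by 0.89 in DMSO and 0.77 in A10i, Cpox by 0.66 and 0.48, and Uros by 0.70 and 0.55. Between A10i and DMSO 0 of 12 were called, and 0 had an unadjusted p under 0.05.

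Of 11 tested genes that clear hemoglobin, heme and iron, 5 were called higher in DMSO and 5 in A10i against Sham, beside 12.9% and 13.7% of all genes, and 0 were lower. The medians were 0.49 and 0.54. Hmox1, heme oxygenase 1, which breaks heme down, rose from 9.23 ± 1.43 CPM in Sham (SD, n = 3) to 144 ± 65.5 in DMSO and 110 ± 64.0 in A10i (n = 4 each), log2 fold changes of 3.96 ± 0.44 and 3.58 ± 0.48 (SE) with edgeR adjusted p of 0.000361 and 0.00151. Hp, haptoglobin, which binds free hemoglobin, rose by 4.59 and 5.08, and the ferritin gene Ftl1 by 1.24 and 1.29. Fth1, the most abundant of the list, had adjusted p of 0.169 and 0.182, but was called higher in both when scaled by library size alone (0.00746 and 0.00341). Hmox1, Hp and Ftl1 were named after their values were seen. Between A10i and DMSO 0 of 11 were called, with 1 at an unadjusted p under 0.05 and a median of 0.05.

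Markers of other blood cells were counted in the same way. Neutrophil markers summed to 3.59 to 4.999 CPM in Sham, 104 to 211 in DMSO and 27.6 to 74.3 in A10i, with 1 of 14 at 0 throughout. In DMSO against Sham 8 of 8 tested were called higher, and in A10i against Sham 7 of 8, beside 12.9% and 13.7% of all genes tested. In A10i against DMSO all 8 were lower with an unadjusted p under 0.05, but 0 were called, and the median was -1.68. That of the 6 red cell transcripts was 0.66, but without A117 the log2 fold changes of the globins and Alas2 were -0.12 to -0.26. With the globin level as a covariate the neutrophil median was -1.74. S100a9 had a log2 fold change of -1.95 and Lcn2 of -1.31 between A10i and DMSO (adjusted p 0.0707 and 0.287).

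The counts called below stand beside 12.9% of all genes called higher and 9.6% lower in DMSO against Sham. In A10i against Sham these shares were 13.7% and 9.11%. Platelet genes summed to 12.8 to 17.3 CPM in Sham, 31.8 to 64.1 in DMSO and 27.1 to 60.5 in A10i. Pf4, platelet factor 4, which macrophages can also make, rose by 1.88 and 1.61 against Sham, 2 of 6 platelet genes were called higher in each of these comparisons, and 0 of 5 between A10i and DMSO. Monocyte markers were called higher in 6 of 7 and 5 of 7, with median log2 fold changes of 2.93 and 1.94. They included Vcan, with 2.04 and 1.82, and Chil3 (means of 0.0144 CPM in Sham, with 0 or 1 count a library, 51.2 in DMSO and 12.5 in A10i). Between A10i and DMSO 0 of 7 were called. Of 3 or 4 B cell markers tested 1, Ighm, was lower in DMSO against Sham, by 1.09, and of 2 T cell markers 0 were called in any comparison. Endothelial markers summed to 1070 to 1116 CPM in Sham, 924 to 1065 in DMSO and 1046 to 1163 in A10i. Against Sham, 1 was called higher and 2 lower in DMSO, and 1 of each in A10i. Scaled by library size alone 2 and 3 were higher and 0 lower. By that scaling 3330 of 17117 genes were called higher and 708 lower in DMSO against Sham. In A10i against Sham 3436 of 16971 were higher and 577 lower. Cardiomyocyte markers were lower in 4 of 9 and 3 of 9, and in 1 and 2 by that scaling; Myh6 fell by 1.19 and dropped by 0.79, and 0 were called between A10i and DMSO. The part of these cells in the red cell values was not tested.

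The genes whose pattern over the 11 libraries was most like that of the 6 were found by the correlation of deviations from group means with the mean deviation of the 6, among 15239 other genes. They included Tent5c (r = 0.982), Isg20 (0.968), Rnf185 (0.961), Aff4 (0.949), Mkrn1 (0.943), Pdlim3 (0.921), Gm46496 (0.914), Ppp1r12a (0.912) and Bpgm (0.911). Among the 6 themselves r was 0.912 for Slc4a1 and 0.995 to 0.997 for the others. All 11 points share the library scaling, and the values are a description. A high r does not give the size of a change.

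Bpgm makes 2,3-bisphosphoglycerate, which lowers the oxygen affinity of hemoglobin. Tent5c, a poly(A) polymerase, had 2.12, 4.45 and 5.0 CPM in Sham, 12.5, 3.92, 1.53 and 4.98 in DMSO, and 6.46, 18.3, 6.52 and 4.90 in A10i. Bpgm had 15.1 CPM in A128, 35.7 in A105, 49.5 in A117 and 17.0 to 24.8 CPM in the other infarcted and Sham hearts. Like the 6, Tent5c and Bpgm were called in none of the 3 comparisons, whereas Isg20 was higher in A10i against Sham and Pdlim3 was higher in both infarcted groups against Sham.

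**Figure D5:**
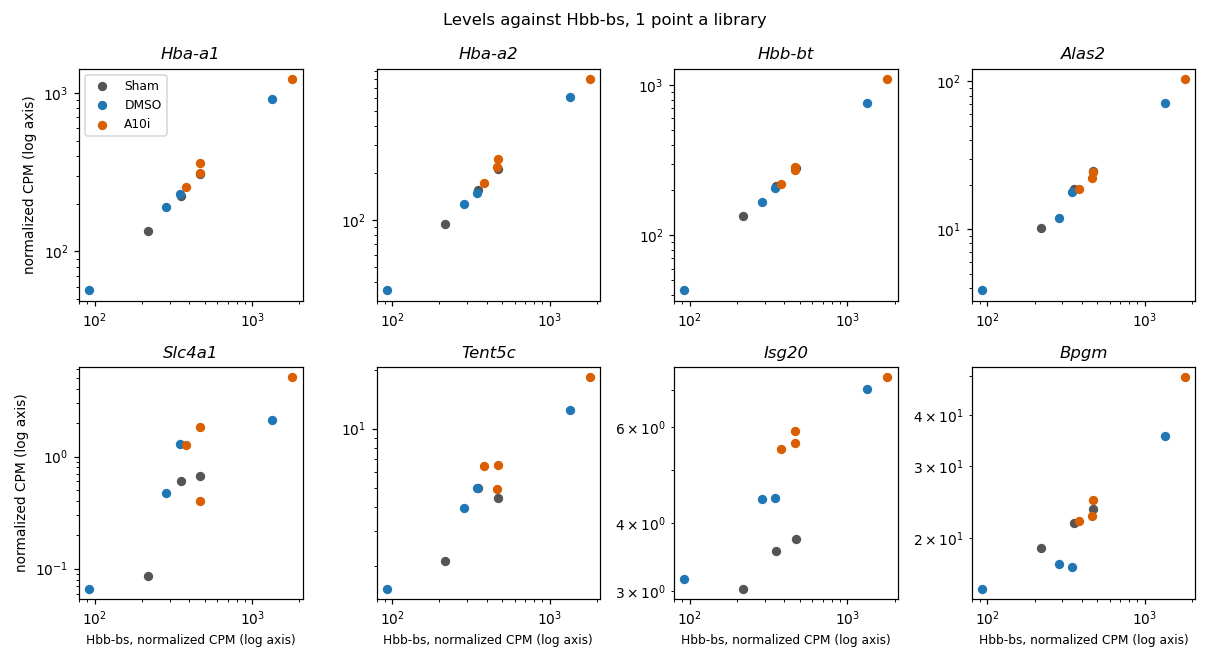
Levels of 5 red blood cell transcripts and of Tent5c, Isg20 and Bpgm against Hbb-bs, in normalized CPM on log axes, 1 point for each library coloured by group. Hba-a1, Hba-a2, Hbb-bt and Alas2 lie near 1 line over all groups, and Slc4a1 scatters most of the 5. In the Isg20 panel the Sham points lie below those of infarcted hearts with a like Hbb-bs level.

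The globin level was also fitted as a term beside treatment in the 8 infarcted hearts. The test of the globin coefficient itself was added after seeing the data. It called 7 of 16792 genes, 0.0417%, with 542 at an unadjusted p under 0.05. Of the 7, 5 were Alas2 and the 4 globins, of which the globins define the term. The others included Tent5c, which changed by 0.76 ± 0.06 log2 units (SE) for each log2 unit of globin (adjusted p = 0.00188). The other genes named above by their r had smaller coefficients, from 0.07 for Aff4 to 0.37 for Bpgm, and were not called. Slc4a1 had a coefficient of 1.00 ± 0.21, with an unadjusted p of 0.00108 by edgeR and an adjusted p of 0.907 over all genes tested. With the globin term in the fit, 0 genes were called between A10i and DMSO, as without it, and 2357 instead of 2323 had an unadjusted p under 0.05.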

How the data were processed

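Poly(A) RNA libraries were strand-specific and read as 100-base pairs. Per the submitters' processing notes and methods, reads were aligned to mm10 with GSNAP and uniquely aligned reads were counted on Ensembl 98 genes with featureCounts 2.0.1; the deposited values are these raw counts, without normalization. Symbols and positions came from GENCODE M21 (GRCm38). The 92 spike-in rows, at most 0.000194% of counts (14 to 43 counts in Sham libraries, 19 to 55 in infarcted ones), were left out.

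The 2 groups of a comparison were fitted alone in edgeR 4.0.16 (R 4.3.3): filterByExpr, TMM, robust quasi-likelihood F-test, two-sided, Benjamini-Hochberg adjustment over all genes tested, threshold 0.01. DESeq2 1.42.0, other scalings, filters, a joint fit and omission of each library were alternatives. Log2 CPM used a prior count of 2. Exact permutation tests (scipy 1.17.1) were used for ratios and single genes. The scripts were tested on simulated data.

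Labels name 1 mouse a library and no batch; replicates differed beyond sampling noise (chi-square over degrees of freedom, 15 pairs: 4.04 to 60.8). Named genes were the 6 transcripts, the 2 highest of each of 10 gene lists (122 genes, 1 not found), list genes called where no more than 3 were, and the 10 genes most alike, with CPM of at least 1 in 3 libraries; some of these genes are not reported here. The transcripts and lists were chosen with earlier results of these data known.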

Additional observations from a re-analysis of the deposited data

Results flagged for a closer look

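In the A10i group library A117 stood far above the other 3, by Dixon's test at its 95% critical value for 4 samples. This held for Hba-a1 (1222 CPM), Hba-a2 (795 CPM), Hbb-bs (1804 CPM), Hbb-bt (1097 CPM), Alas2 (104 CPM) and the share of counts in the 6 transcripts (0.506%). It also held for the log2 ratio of Alas2 to the 4 globins, at -5.57. The CPM values and the share were tested on the linear scale. On a log scale, which was not tested, the gap of a high value is a smaller part of the range. Of 24 values tested in groups of 4, 7 were marked, where chance marks about 1 in 20, but the 7 come from 1 library and are not independent. Library A105 in the DMSO group did not pass the critical value, with gaps of 0.773 to 0.802 of the range for the globins and 0.793 for Alas2. The Hbb-bs to Hbb-bt ratio of A128 had a gap of 0.815, and the Slc4a1 to globin ratio of A120 one of 0.820.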

How the results depend on the processing

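None of the 6 transcripts was called under any alternative that tested it; a filter of at least 10 counts in every library left out Slc4a1 in all 3 comparisons. Without A105 the DMSO against Sham log2 fold changes turned to -0.50 (Hba-a1), -0.58 (Hba-a2), -0.54 (Hbb-bs), -0.62 (Hbb-bt) and -0.69 (Alas2); the highest, without A128, were 1.00, 0.942, 0.918, 0.846 and 0.911, and 1.44 for Slc4a1. As means of log2 CPM they were -0.0302 for Hba-a2, -0.13 for Hbb-bt and -0.10 for Alas2. Without A117 the A10i against DMSO values turned to -0.16, -0.12, -0.23, -0.19 and -0.26 for the same 5, and without A105 they were 1.77, 1.79, 1.70, 1.77 and 1.93, and 1.87 for Slc4a1. With the globin covariate they were -0.0505 for Hbb-bs, -0.00320 for Hbb-bt and -0.0147 for Alas2; the term is made of the 4 globins, so values near 0 are by construction for them and not for Alas2. A10i against Sham kept its direction throughout (0.29 to 2.5999). Scaling by library size alone moved the median of all genes by 0.21 in DMSO and 0.18 in A10i against Sham and turned none of the 6. It changed the genes called higher and lower from 2215 and 1643 to 3330 and 708 in DMSO, and from 2333 and 1546 to 3436 and 577 in A10i against Sham; RLE size factors changed no call in the gene lists. List counts under these scalings were added after seeing the data.

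The number of genes called at 0.05 instead of 0.01 was 6832 in DMSO against Sham (3858), 6671 in A10i against Sham (3879) and 12 in A10i against DMSO (0). Leaving out 1 library gave 1525 to 4051, 1620 to 4365 and 0 to 1; each Sham library left out lowered the first 2 to 1525 to 1542 and 1620 to 1714. Between A10i and DMSO, DESeq2 called 231, a filter of at least 1 count in any library 43 and the joint fit 11. The Alas2 to globin difference between A10i and Sham, -0.02 on the log2 scale, was -0.0789 without A117 and turned to 0.000692 without S2, 0.0108 without S3, 0.000993 without A119 and 0.00637 without A120. The correlation of Slc4a1 with Hbb-bs fell to 0.559 without A128 and A117. No paired analysis was possible because the labels give the groups no shared replicate numbers. Depth limits Slc4a1, at 2 to 131 counts, and the red cell genes below the filter.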
